A study of Mus musculus with 10 samples.

Results

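A set of 9 mature miRNAs of myeloid cells, lymphoid cells and inflammation was followed in the mouse retina, out of 1061 mature miRNAs in the deposited table. They were chosen by name: mmu-miR-223-3p, mmu-miR-142a-3p, mmu-miR-142a-5p, mmu-miR-155-5p, mmu-miR-150-5p, mmu-miR-146a-5p, mmu-miR-146b-5p, mmu-miR-21a-5p and mmu-miR-21a-3p, written without the species prefix from here on. All 9 were in the table, and 7 of them had a mean of at least 10 normalised reads and entered the tests, which covered 484 miRNAs. The libraries came from wild-type C57BL/6J mice at postnatal day 34. Each animal had carried a goggle with a lens of -20 D over 1 eye from postnatal day 24, for 10 days, and the fellow eye had none. A minus lens of this kind is used to make an eye myopic. Both retinas of 5 mice, numbered 61, 64, 65, 66 and 68, gave 5 left and 5 right libraries, each from a whole retina. Which eye had the lens is not stated in the labels, so right was set against left within each animal, and a lens effect on different sides in different mice would cancel.

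miRNAs are short RNAs cut from hairpin precursors. The bases at positions 2 to 8, the seed, pair with target mRNAs and set most of the target choice, and either strand of the hairpin, the 5p or the 3p arm, may be loaded and kept. Microglia are the resident macrophages of the retina and, with the blood cells in its vessels, are the cells in which several of these miRNAs are best known. miR-142, miR-223 and miR-150 mark blood-derived lineages, miR-155 and miR-146a are induced by inflammatory signalling and respectively promote and restrain it, and miR-21 is raised in many injured or inflamed tissues but is made by many cell types. In bulk tissue, fewer cells of a type cannot be told apart from less of the miRNA per cell.

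RefSeq gave a mature sequence (GRCm38.p6) for 8 of the 9. They are printed 5′ to 3′ with the seed in capitals, since the seed decides which of them can share targets.

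miR-223-3p: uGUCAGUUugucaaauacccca

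miR-142a-3p: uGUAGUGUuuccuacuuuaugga

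miR-142a-5p: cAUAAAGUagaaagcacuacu

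miR-155-5p: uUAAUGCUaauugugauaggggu

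miR-146a-5p: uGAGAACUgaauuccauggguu

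miR-146b-5p: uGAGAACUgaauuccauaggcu

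miR-21a-5p: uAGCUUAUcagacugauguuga

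miR-21a-3p: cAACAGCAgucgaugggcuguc

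The 8 sequences carried 7 different seeds. The seed GAGAACU was shared by miR-146a-5p and miR-146b-5p, which differ at 2 bases of their 3′ part, G18A and U21C (the base of miR-146a-5p first, positions counted from 1 at the 5′ end). No other miRNA of the table with a RefSeq sequence (909 of 1061) had any of these 7 seeds. miR-21b, a near copy of miR-21a-5p encoded on chromosome 3, differs from it within the seed, at C4U, and at G18A, G21U and A22C. It was listed at 0 in 7 of 10 libraries and reached at most 1.70 normalised reads. miR-21c and miR-142b, the latter encoded on the strand opposite to miR-142a, were not analysed here.

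Of the 9 miRNAs, 5 lie on chromosome 11 (GRCm38). The miR-21a arms lie in an exon of Vmp1, a gene of membrane trafficking and autophagy, with miR-21a-5p at chr11:86584120-86584141 and miR-21a-3p at chr11:86584082-86584103, both on the minus strand. The miR-142a arms lie 1.17 Mb away on the plus strand in an intron of the lincRNA Mir142hg, at chr11:87756867-87756887 for 5p and chr11:87756903-87756925 for 3p. miR-146a-5p (chr11:43374435-43374456, minus strand) lies outside other annotated genes, whereas miR-146b-5p (chr19:46342790-46342811, plus strand) lies in an intron of Mfsd13a. miR-155-5p (chr16:84714143-84714165, plus strand) lies in an exon of its host transcript Mir155hg, and miR-223-3p (chrX:96242884-96242905, plus strand) in an exon of the noncoding transcript F630028O10Rik. miR-150-5p (chr7:45121762-45121783, plus strand) lies outside other annotated genes.

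The precursors of miR-21a and miR-142a are shown because both of their arms belong to the set. The mature arms are in capitals, 5p first.

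Mir21a: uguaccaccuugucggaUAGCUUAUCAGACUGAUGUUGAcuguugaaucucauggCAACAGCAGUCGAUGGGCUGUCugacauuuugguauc

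Mir142: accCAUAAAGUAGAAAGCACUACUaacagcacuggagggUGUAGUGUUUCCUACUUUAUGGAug

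The deposited values were read counts normalised so that each library had nearly the same total, from 17312269 to 17312436, and the sorted values were the same in all libraries, to 6 decimals, at 347 of 1061 ranks. The read depth of the libraries is unknown, a value follows a miRNA's rank, and between 162 and 239 miRNAs were listed at 0 in a library. The tissue label was checked on 6 miRNAs of photoreceptors and retinal neurons, among them miR-182-5p and miR-181a-5p, which took 83.0% to 83.2% of the normalised total in each library. miR-182-5p held rank 1 and miR-181a-5p rank 2 in every library, each with the same value in all 10. The narrow range of the share is therefore set by the normalisation, and the check rests on the ranks. The 9 immune miRNAs summed to 0.0691% to 0.0787%, so the set as a whole was a small part of the retinal profile.

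The members differed widely in level. miR-21a-5p led with 9498 ± 749 normalised reads (SD over 10 libraries) and made up 68.9% to 77.1% of the sum of the set. miR-150-5p followed with 1825 ± 242 and miR-146b-5p with 1364 ± 197. The next were miR-142a-5p at 113 ± 27.0, miR-146a-5p at 43.8 ± 7.96, miR-21a-3p at 28.1 ± 5.27 and miR-155-5p at 16.2 ± 6.27. miR-142a-3p had 5.69 ± 3.23 and miR-223-3p 1.38 ± 1.18 normalised reads. miRNAs are of nearly 1 length, but adapter ligation favours some sequences, so this order is one of reads and not of molecules.

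The order was not the same in every library. miR-21a-5p lay above miR-150-5p in 10 of 10 libraries and miR-146b-5p above miR-142a-5p in 10 of 10, and in both pairs the ranges did not overlap. The ranges of miR-150-5p and miR-146b-5p overlapped, and in the left retina of mouse 64 miR-146b-5p was the higher. Likewise miR-142a-5p was above miR-146a-5p, miR-21a-3p above miR-155-5p and miR-155-5p above miR-142a-3p in 9 of 10 libraries each. miR-146a-5p was above miR-21a-3p and miR-142a-3p above miR-223-3p in 10 of 10, with ranges over libraries that overlapped. By rank among the 1061 miRNAs, miR-21a-5p held places 40 to 46, miR-150-5p 85 to 99 and miR-146b-5p 95 to 108, whereas miR-155-5p varied from 402 to 525.5 and miR-223-3p from 590.5 to 978, where tied values share their mean rank.

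**Figure D1:**
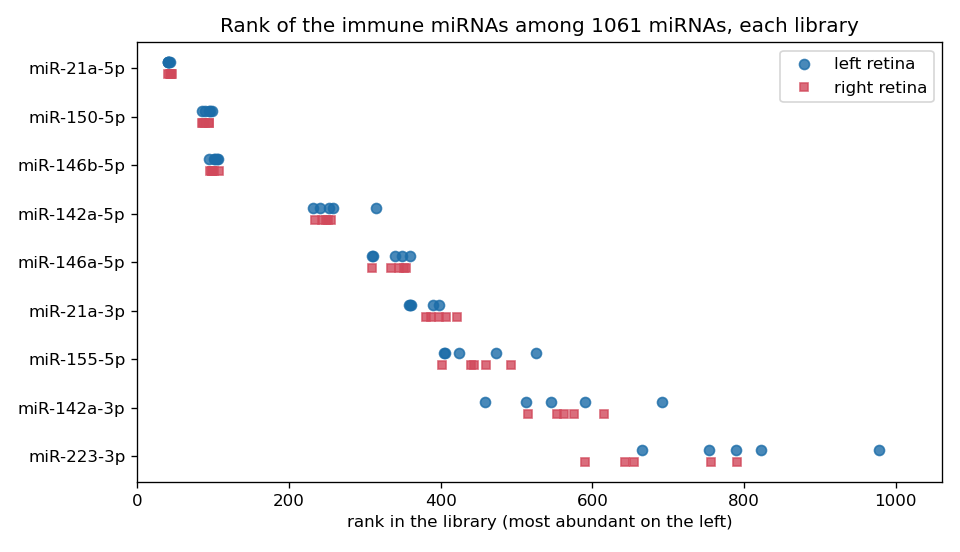
Rank of each of the 9 miRNAs among 1061 miRNAs (x axis, 1 is the most abundant) in the 5 left (circles) and 5 right (squares) libraries, in the order of their mean level. The ranks of miR-21a-5p stay within 40 to 46, and those of miR-223-3p spread from 590.5 to 978.

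Right retina was set against left to ask whether any of these miRNAs differed between the fellow eyes of lens-treated animals. No member passed the test, and the most regular difference was that of miR-21a-5p, about 10% lower on the right. An adjusted p under 0.05 was reached by 0 of the 7 tested members (limma with mouse as a block, Benjamini-Hochberg over 484 miRNAs), as were 0.0% of all tested miRNAs. At an unadjusted p under 0.05 there was 1 of 7 members, against 2.48% of all tested miRNAs. Log2 fold changes, right minus left on the log2(value + 1) scale, were above 0 for 3 members and below 0 for 4, with a median of -0.05 beside -0.01 for all tested miRNAs. No member had groups that did not overlap, where 0.413% of all miRNAs had every right value below every left one and 0.413% the reverse.

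miR-21a-5p represses, among others, the tumour suppressor Pdcd4. In left retina it was at 10406, 9745, 9982, 10406 and 9435 normalised reads in mice 61, 64, 65, 66 and 68. In right retina of the same mice it was at 8618, 8350, 9435, 9982 and 8618. Every right value was below its left partner, although the groups overlapped, since the right value of mouse 66 was above the left values of mice 64 and 68. The log2 fold change was -0.15 (SE 0.05), or 0.899-fold with an unadjusted 95% interval from 0.829 to 0.975, and the adjusted p by limma was 0.958. By unadjusted p (0.0182) it was number 4 among the 484 miRNAs. This place depended on the settings of the fit, from 3 of 1061 miRNAs with no filter on low values to 75 of 424 with the GC trend removed. The unadjusted p by limma was 0.0524 without mouse 61 and 0.0641 without mouse 64. A decrease on the right in all 5 mice was seen for 1 of 7 members and for 1.86% of all tested miRNAs. In ranks, the difference amounted to 5 places in mouse 61 (40 to 45), 4 in mouse 64 (42 to 46), 2 in mice 65 and 68 and 1 in mouse 66.

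The trend with base composition was measured in each mouse. Across the 424 tested miRNAs with a sequence, the right-minus-left log2 difference rose per 10 points of GC content by 0.19 in mouse 61, 0.12 in mouse 64, 0.06 in mouse 66 and 0.04 in mouse 68, and was -0.17 in mouse 65. miR-21a-5p has a GC content of 36.4%, and its log2 difference was -0.27, -0.22, -0.06 and -0.13 in mice 61, 64, 66 and 68 and -0.08 in mouse 65. The part of the GC trend in the difference of miR-21a-5p was not tested beyond the fit given next. With the GC trend of each library removed, an alternative chosen after seeing the data, the log2 fold change of miR-21a-5p was -0.09 with an unadjusted p of 0.170 and an adjusted p by limma of 0.940, within a range from 0.333 to 1 over its 12 alternatives.

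miR-21a-3p, the minor arm, is cut from the same hairpin. In left retina it had 34.6, 35.5, 24.9, 27.0 and 34.6 normalised reads in mice 61, 64, 65, 66 and 68, and in right retina 23.1, 24.9, 29.1, 20.3 and 27.3. The right value was the lower in 4 of 5 mice and the higher in mouse 65, and the groups overlapped. The log2 fold change was -0.31 (SE 0.16), or 0.804-fold with an interval from 0.621 to 1.04 (adjusted p by limma 0.958). Both arms of miR-21a were thus among the miRNAs that were lower on the right in at least 4 mice, which held for 2 of 7 members and 17.8% of all tested miRNAs. The reverse, a higher right value in at least 4 mice, held for 0 of 7 members and 14.9% of all tested miRNAs. Unlike the 5p arm, the 3p arm is rich in GC (59.1%), and with the GC trend removed its log2 fold change was -0.36.

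The miR-21a hairpin gave 338 reads of the 5p arm for each read of the 3p arm, as a ratio of means. By mouse, the ratio was 300.3 in left and 374 in right retina of mouse 61, 275 and 335 in mouse 64, 401 and 325 in mouse 65, 386 and 493 in mouse 66 and 272 and 316 in mouse 68. It was higher on the right in 4 of 5 mice, by 0.16 ± 0.26 on the log2 scale (SD over 5 mice). The mean difference could not be told apart from 0 (two-sided exact sign-flip permutation test, p = 0.313, where 0.063 is the smallest p that 5 mice allow). No other hairpin of the set had both arms at a mean of at least 10.

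Among the leukocyte miRNAs, miR-150-5p was the most abundant. It is known from mature B and T cells, where it represses Myb. It was at 1596, 1434, 1898, 1703 and 2117 normalised reads in left and at 2039, 1898, 1703, 1675 and 2185 in right retina of mice 61, 64, 65, 66 and 68. The right value was the higher in mice 61, 64 and 68 and the lower in mice 65 and 66, and the groups overlapped. The log2 fold change was 0.12 (SE 0.10), or 1.09-fold with an interval from 0.916 to 1.297 (adjusted p by limma 0.958). Without mouse 64 the log2 fold change was 0.055. On average miR-150-5p had 1825 normalised reads, against 113 for miR-142a-5p and 1.38 for miR-223-3p, also of blood-derived lineages. Which cells the reads of miR-150-5p came from was not tested.

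miR-142 is made in all blood-derived lineages, microglia included, and both of its arms act as guides there. miR-142a-5p was at 149, 130.0, 51.9, 100.4 and 108 normalised reads in left and at 109, 124, 113, 105 and 141.9 in right retina of mice 61, 64, 65, 66 and 68. The left library of mouse 65 was the lowest and the other 9 lay between 100.4 and 149. The log2 fold change was 0.21 (SE 0.22), with an interval of the fold change from 0.804 to 1.66 and an adjusted p by limma of 0.958, and it was -0.013 without mouse 65. miR-142a-3p was at 5.77, 13.2, 1.59, 7.7 and 3.8 in left and at 4.2, 7.40, 3.07, 5.3 and 4.9 in right retina, in the same order of mice. Again the lowest value was that of the left library of mouse 65, and the highest was that of the left library of mouse 64. This arm was too low for the main test, and without the filter on low values its log2 fold change was -0.13 (SE 0.33, adjusted p by limma 0.961).

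The arms of miR-142a kept 1 order throughout, with the 5p arm above the 3p arm in every library. The ratio of 5p to 3p ran from 9.84 in the left retina of mouse 64 to 36.6 in the right retina of mouse 65, and was higher on the right in all 5 mice by normalised reads, though by little in mice 61 (25.9 and 26.0) and 68 (28.3 and 29.0). With 1 added to each value it was higher on the right in 4 of 5 mice. At these levels of the 3p arm, where up to 67 other miRNAs of a library had exactly its value, the ratio is imprecise and was not tested.

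miR-223-3p, the most characteristic miRNA of neutrophils and other myeloid cells and also found in platelets, had few reads, at rank 724 of 1061 by mean. In left retina it was at 0.132, 0.9995, 0.653, 1.95 and 0 normalised reads in mice 61, 64, 65, 66 and 68. In right retina it was at 0.625, 1, 2.29, 2.4 and 3.70. The right value was the higher in all 5 mice, but by 0.000337 on the log2 scale in mouse 64, and the groups overlapped. Between 29 and 166 other miRNAs of the same library had exactly its value, so these are low values shared by many miRNAs. Some of them may not stand for any detected read. Without the filter on low values its log2 fold change was 0.79 (SE 0.38, unadjusted p 0.0745, adjusted p by limma 0.950).

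Among the miRNAs of inflammatory signalling, miR-155-5p was the most variable of those tested. It is induced in activated macrophages and lymphocytes and represses Socs1 and Inpp5d. Left retina had 23.6, 11.1, 6.8, 23.3 and 19.7 normalised reads in mice 61, 64, 65, 66 and 68, and right retina 12.5, 16.1, 15.5, 24.0 and 9.25. Right values were below left ones in mice 61 and 68 and above them in the others, with groups that overlapped almost fully. The log2 fold change was -0.05 (SE 0.35), with an interval of the fold change from 0.534 to 1.74 and an adjusted p by limma of 1. Without mouse 61 it was 0.15 and without mouse 68 it was 0.19, with the opposite sign. Its standard deviation over the 10 libraries, 0.58 on the log2 scale, was above the median of 0.28 over all tested miRNAs, as was the 0.42 of miR-142a-5p, while miR-21a-5p (0.12), miR-150-5p (0.19) and miR-146b-5p (0.21) lay below it.

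miR-146a and miR-146b are induced through NF-kB and STAT signalling and repress Traf6 and Irak1, signalling proteins downstream of innate immune receptors. miR-146b-5p was at 1363, 1675, 1274, 1188 and 1115 normalised reads in left and at 1596, 1483, 1098, 1363 and 1483 in right retina of mice 61, 64, 65, 66 and 68. It was higher on the right in mice 61, 66 and 68 and lower in the other 2, with a log2 fold change of 0.09 (SE 0.11) and an interval of the fold change from 0.879 to 1.288. Without mouse 68 the log2 fold change of miR-146b-5p was 0.0090, and without mouse 65 it was 0.17. miR-146a-5p was at 54.4, 38.5, 55.0, 41.8 and 35.5 in left and at 39.7, 55.0, 37.5, 36.7 and 43.8 in right retina. It was higher on the right in mice 64 and 68 and lower in the other 3, with a log2 fold change of -0.07 (SE 0.18) and an interval of the fold change from 0.699 to 1.29. The adjusted p by limma was 0.971 for miR-146b-5p and 0.978 for miR-146a-5p, and the groups of both overlapped. For miR-146a-5p the log2 fold change turned to 0.018 without mouse 61 and to 0.043 without mouse 65.

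The 2 miR-146 sequences, with 1 seed between them, were unequal in level in every library. miR-146b-5p had between 23.2 and 43.5 times the normalised reads of miR-146a-5p, with a mean ratio of 31.9. The lowest ratio was in the left retina of mouse 65 and the highest in the left retina of mouse 64. Since they differ at 2 bases near the 3′ end, how the authors' alignment treated mismatches could move reads between them, and its settings are not stated in the labels.

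**Figure D2:**
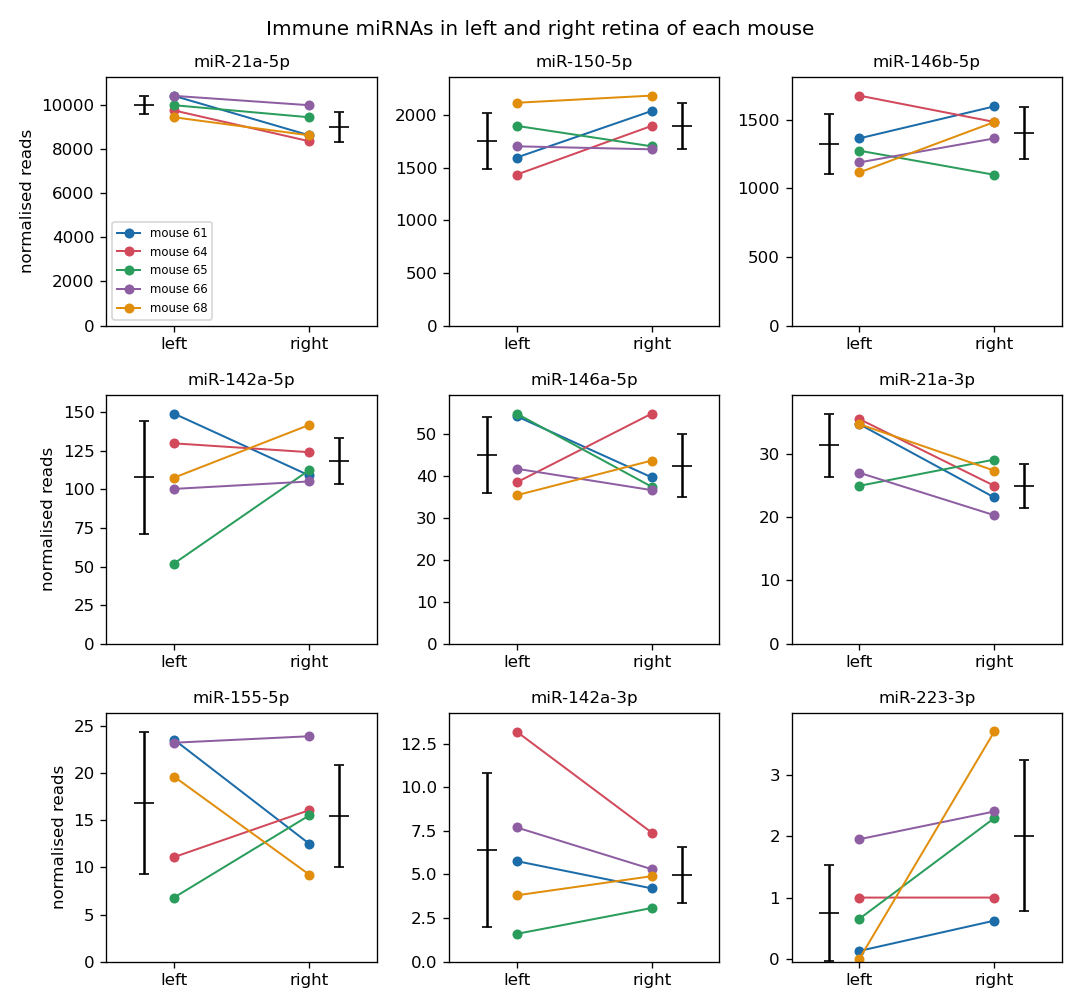
Normalised reads (y axis, starting at or just below 0) of each of the 9 miRNAs in left and right retina, with a line for each mouse and, beside them, the mean ± SD of 5 libraries per side. The lines of miR-21a-5p all fall from left to right, those of miR-223-3p rise or stay level at low values, and those of the other 7 run in both directions.

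**Figure D3:**
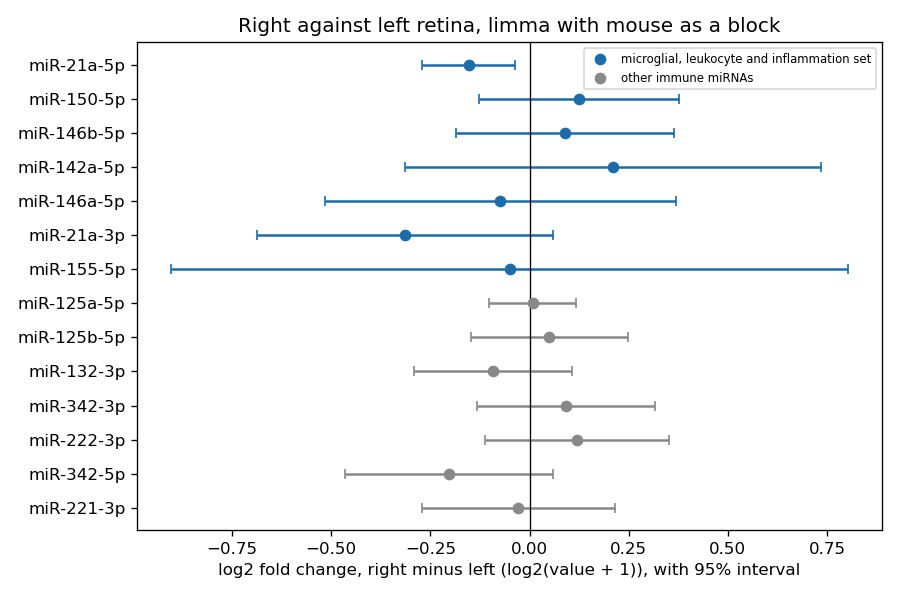
Log2 fold change of right minus left retina (x axis, log2(value + 1) scale) with the unadjusted 95% interval of limma, for the 7 tested members (blue) and 7 other immune miRNAs (grey). The interval of miR-21a-5p, from -0.27 to -0.04, is the only one of the 14 that leaves out 0 before adjustment.

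Differences between animals were examined in the same fit, with an F test of the mouse term. No member passed this test, which sets the spread between mice against that between the eyes of a mouse. Of the 7 tested members, 0 reached an adjusted p under 0.05 and 0 an unadjusted one, against 1.65% and 14.0% of all tested miRNAs. The smallest adjusted p of a member by limma was 0.582, for miR-21a-5p, whose mouse means ran from 9027 in mouse 68 to 10194 in mouse 66. For miR-150-5p the highest mouse mean was 2151, in mouse 68, and the lowest 1666, in mouse 64 (adjusted p by limma 0.613). For miR-142a-5p they were 129 in mouse 61 and 82.2 in mouse 65 (0.613), the latter with its left library at 51.9. For miR-146a-5p, with the smallest F of the 7, mouse means ran from 39.2 to 47.1 (0.952), and the eyes of mouse 65 were at 55.0 and 37.5.

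A single library, the left retina of mouse 65, held the lowest value of 3 members: miR-142a-5p, miR-142a-3p and miR-155-5p. On the log2 scale it lay 1.06, 1.23 and 1.04 below their means over 10 libraries. In the same library miR-150-5p was 0.07, miR-146a-5p 0.34 and miR-21a-5p 0.08 above the mean, and the other 3 were 0.08 to 0.36 below it, so the set did not move together there. Low values there were not particular to the set. Erythrocyte miR-451a (24.3) and miR-144-3p (4.43) and epithelial miR-184-3p (988) and miR-205-5p (10.9) were also lowest in this library. Its values of miR-126a-3p, miR-132-3p and miR-221-3p were the highest of the 10 libraries. The share of all miRNAs that were lowest in this library was not counted. The GC content of miR-142a-5p, miR-142a-3p and miR-155-5p is 33.3%, 34.8% and 34.8%, while the slope on GC content in mouse 65 was opposite in sign to the other slopes, as given above. The part of this trend in the low values was not tested. With the trend removed, the log2 fold changes were 0.29 for miR-142a-5p and 0.018 for miR-155-5p. These cover all 5 mice and cannot show the part of the trend in 1 library.

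**Figure D4:**
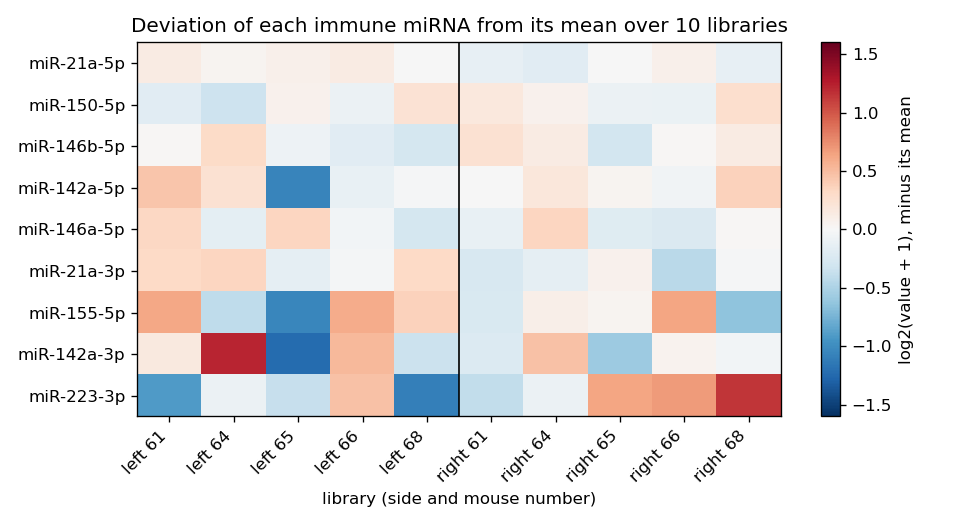
Log2(value + 1) of each of the 9 miRNAs minus its mean over 10 libraries (colour), by library, left retinas before the line and right retinas after it. The left library of mouse 65 is low for miR-142a-5p, miR-155-5p and miR-142a-3p but not for miR-150-5p, miR-146a-5p or miR-21a-5p.

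Pairs of members were compared over the 10 libraries as a description, since eyes of a mouse are not independent and values are tied to ranks. Pearson's r of the log2 values ran from -0.63, for miR-150-5p with miR-21a-5p, to 0.43, for miR-142a-5p with miR-155-5p. It was 0.26 for the arms of miR-21a and 0.19 for the pair with a shared seed, miR-146a-5p and miR-146b-5p. Outside the set, the miRNA most like miR-142a-5p was miR-145a-3p, of smooth muscle and pericytes, with an r of 0.94. It too was lowest in the left retina of mouse 65, at 21.9 normalised reads against 35.9 to 63.1 in the other 9 libraries. For miR-21a-5p it was miR-376a-5p (0.93), for miR-146b-5p miR-3074-5p (0.93), for miR-21a-3p miR-30e-5p (0.88) and for miR-150-5p miR-127-3p (0.88). For miR-146a-5p it was miR-6989-3p (0.85) and for miR-155-5p miR-99a-3p (0.80). Each of these is the highest of 472 values of r over 10 libraries, with miRNAs of identical values left out.

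Partner arms of the other hairpins were scarce. Of 5 listed, 3 were in the table and none reached a mean of 10 normalised reads. miR-150-3p was at 2.95, miR-146b-3p at 2.70 and miR-155-3p at 0.214 on average, the last listed at 0 in 9 of 10 libraries. miR-223-5p and miR-146a-3p were not analysed here.

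Other immune miRNAs were listed by their known roles. Of 11, 10 were in the table and 7 were tested, with 0 called higher and 0 called lower on the right, 4 log2 fold changes above 0 and 3 below, and a median of 0.01. miR-342-3p, which is expressed in lymphoid and myeloid cells and also in neural tissue, was at 2075 ± 195 normalised reads in left and at 2227 ± 349.7 in right retina (SD, n = 5). Its partner arm miR-342-5p was at 443 ± 35.9 and 390.0 ± 80.5, with a log2 fold change of -0.20. The macrophage miRNAs were too low to be tested. miR-511-3p and miR-511-5p, encoded in the mannose receptor gene Mrc1, averaged 0.657 and 0.446 with 4 libraries each at 0. miR-147-3p, induced by Toll-like receptors in macrophages, averaged 4.14, at rank 581 by mean and with 1 library at 0. miR-132-3p, miR-125a-5p, miR-125b-5p, miR-221-3p and miR-222-3p, which act in immune cells and are also made by other cells, had log2 fold changes from -0.09 to 0.12.

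miRNAs of other tissues that a retinal sample could hold were summed per library, and their part in the values above was not tested. Those of erythrocytes, led by miR-486b-5p and miR-486a-5p, summed to 4980 to 6699 normalised reads in left and 5149 to 8112 in right retina, and were higher on the right in 4 of 5 mice. That sum is mostly the pair of miR-486 miRNAs, while miR-451a, miR-144-3p and miR-144-5p had log2 fold changes of -0.03, -0.55 and -0.14. Endothelial miR-126a-5p and miR-126a-3p summed to 7870 to 8926 and 7427 to 9110, lower on the right in 4 of 5 mice, and miR-126a-3p alone was lower in 5 of 5. Pericyte and smooth muscle miRNAs, led by miR-143-3p and miR-145a-5p, summed to 14543 to 19523 and 15480 to 21127, higher on the right in 3 of 5 mice. Fibroblast miRNAs, led by miR-199a-3p and miR-199b-3p, summed to 498 to 662 and 517 to 811, higher on the right in 5 of 5 mice, while the less abundant miR-199a-5p and miR-214-3p had log2 fold changes of -0.22 and -0.04. The pigment epithelium list, led by miR-204-5p and miR-211-5p, summed to 209905 to 224593 and 213349 to 220695, higher on the right in 4 of 5 mice. The value of miR-204-5p was the same, 203500, in all 10 libraries, at rank 7. The differences of this sum were thus mostly those of miR-211-5p. The lens, cornea and epithelium list, led by miR-184-3p and miR-205-5p, reached 22433 in the right retina of mouse 65 and 1015 to 2197 elsewhere. In that retina miR-184-3p alone was at 22384. The other markers of the list were at 25.6 or below there, and none of them was at its highest value. The muscle list, led by miR-133a-3p and miR-133b-3p, reached 1742 in the left retina of mouse 68 and 279 to 399.6 elsewhere. None of the markers was at 0 in all libraries, and none of these lists held a miRNA that passed either test. Of all tested miRNAs taken singly, 14.9% were higher and 17.8% lower on the right in at least 4 of 5 mice. In all 5 mice, 1.86% were higher and 1.86% lower. No such share was computed for sums of miRNAs. The 9 immune miRNAs summed to 12868 to 13633 in left and 11959 to 13213 in right retina, a sum that is mostly miR-21a-5p.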

How the data were processed

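Per the labels' protocols, 50 ng of the small RNA fraction of each retina went into a TruSeq Small RNA library. The submitters' processing notes name Partek, Bowtie, GRCm38 and mm10 without versions. The deposited signal was a normalised read count per mature miRNA. How adapters were trimmed and values normalised, and the miRNA annotation, are not stated in the labels. The depth is unknown, so no counting intervals were computed. The table held 0 columns of other samples.

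Values were taken as log2(value + 1), and the miRNAs whose mean over 10 libraries reached 10 were fitted with limma 3.58.1 in R 4.3.3 (mean-variance trend, two-sided tests, Benjamini-Hochberg adjustment over 484 miRNAs, threshold 0.05). The fold changes understate changes of low miRNAs. Mouse was a term of the model, because both retinas of a number come from 1 animal. As a check, the deviations of both libraries of a mouse from the mean of their side had a correlation across miRNAs, which are not independent, of 0.0893 (mouse 61), 0.382 (mouse 64), 0.159 (mouse 65), 0.295 (mouse 66) and 0.138 (mouse 68). The fit was tested on simulated data.

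Positions are those of the table in GRCm38. The start matched RefSeq for 908 of 909 miRNAs and the table's end lay 1 base past the last base in the same 908, so the last base is printed. Host genes are from GENCODE M21.

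The miRNAs and lists were chosen with earlier results of these data known. Named are all 9 members, the listed partner arms, near copies and other immune miRNAs, the most similar miRNA of each tested member, and the 2 most abundant markers of each other list. Values of other settings are in the closing section.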

Additional observations from a re-analysis of the deposited data

How the results depend on the processing

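No member passed under the 12 alternatives to the right-minus-left fit (11 for miR-150-5p, which was not in the fit with the GC trend removed), where the smallest adjusted p of a member by limma was 0.333, nor in the test between mice (0.317), and the number of miRNAs called right against left was 0 in all of them. Without the replicate block of mouse it was also 0, with 13 miRNAs at an unadjusted p under 0.05 beside 12 with it, and the block changed no call of a member. Leaving out mouse 65 gave 63 at that level. The number of miRNAs called between mice, 8, was 5 with no trend, 10 with median-ratio scaling and from 3 to 7 when each mouse was left out. It was 13 with the GC trend removed, a fit chosen after seeing the data that also tested fewer miRNAs, 424 in place of 484. With each mouse left out, the log2 fold change of miR-142a-5p ranged from -0.013 (without mouse 65) to 0.37, miR-146a-5p from -0.22 to 0.043 (without mouse 65; 0.018 without mouse 61) and miR-155-5p from -0.33 to 0.19 (without mouse 68; 0.15 without mouse 61), and so each changed sign. miR-146b-5p ranged from 0.0090 to 0.17 and miR-150-5p from 0.055 to 0.19, with no change of sign. With the GC trend removed, miR-155-5p was at 0.018. The cause of these changes was not tested. The log2 fold change of miR-21a-5p stayed below 0 in all 12, from -0.18 to -0.09, that of miR-21a-3p from -0.45 to -0.24, and the arm ratio of miR-21a stayed higher on the right in its 7 alternatives, by 0.09 to 0.28. The depth is unknown, and miR-223-3p and miR-142a-3p were too low for the main test.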
